A study of Homo sapiens with 4 samples.

Results

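The chaperonins described here are the 8 subunit genes of the cytosolic CCT ring, TCP1, CCT2, CCT3, CCT4, CCT5, CCT6A, CCT7 and CCT8, and the mitochondrial pair HSPD1 and HSPE1. They were chosen by name as the known subunits of both machines. These 10 genes were found by symbol among the 58735 gene identifiers of the count table, and each passed the expression filter that left 16250 genes to test. RNA had been sequenced from 4 libraries of cells labelled as wild-type A549, a human lung adenocarcinoma line grown in serum-containing medium. The cells had been stained with an antibody against the adhesion glycoprotein ICAM1 and separated by flow cytometry. There were 2 libraries of the ICAM1-high subset and 2 of the ICAM1-low subset, and both subsets carry the same labels for the line, the medium and the staining.

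Chaperonins are barrel-shaped protein folding machines that take up an unfolded protein and release it after cycles of ATP hydrolysis. In the cytosol, CCT (also called TRiC) stacks a pair of rings, each built from a single copy of every one of its 8 different subunits, and is needed for the folding of actin and tubulin. In the mitochondrial matrix, HSPD1 (HSP60) forms rings of 1 kind of subunit, and HSPE1 (HSP10) closes them as a lid. In human cells the genes of both machines are known targets of heat shock factors, and HSPD1 and HSPE1 lie head to head and share a promoter region.

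Sequencing depth, as the sum of all counts, was 17638647 and 17271825 for ICAM1-high and 16665362 and 16272591 for ICAM1-low. The sorting marker ICAM1 had 2153 and 2028 counts in ICAM1-high and 72 and 75 counts in ICAM1-low, in the direction of the labels. CDKN2A, absent from the A549 genome because both copies are deleted, had 1009 and 1214 counts in ICAM1-high and 0 in both ICAM1-low libraries, so at this locus the ICAM1-high libraries do not match the line they are labelled as. Its deleted neighbours were likewise counted mostly in ICAM1-high, CDKN2B with 356 counts against 0 and MTAP with 922 against 9. No comparison between the subsets can be made without these libraries. Epithelial markers (5 genes, all tested) summed to 4455 and 4602 CPM (counts scaled to library size with TMM factors) in ICAM1-high, against 2507 and 2435 CPM in ICAM1-low. Most of that sum was KRT8, at a mean of 3074 CPM in ICAM1-high, against 1290 CPM in ICAM1-low. EPCAM was lower, at 2.79 CPM in ICAM1-high, against 4.32 CPM in ICAM1-low, and the other 4 were higher. Of all genes tested, 30.4% were higher and 29.4% lower at an edgeR adjusted p under 0.05, so either direction was common. The 5 alveolar markers summed to 1.502 and 2.02 CPM in ICAM1-high, against 1.79 and 1.24 CPM in ICAM1-low, with SFTPA1 at 0 throughout. The 8 fibroblast markers summed to 31.7 and 35.6 CPM in ICAM1-high, against 4.67 and 5.87 CPM in ICAM1-low. Most of that sum was COL1A1, at a mean of 28.6 CPM in ICAM1-high, against 4.07 CPM in ICAM1-low. COL1A2, COL3A1 and DCN had 0 to 2 counts in each library. The 6 endothelial markers summed to 23.4 and 26.7 CPM in ICAM1-high, against 4.99 and 3.72 CPM in ICAM1-low. Of the 5 fibroblast and 4 endothelial markers that passed the expression filter, 4 and 3 averaged under 1 CPM in ICAM1-low. Several of these passed only through their ICAM1-high counts and had to differ, so no count of calls is given for either list. Leukocyte markers (6 listed, 2 tested, CD14 higher and ITGAM lower) summed to 25.9 and 24.6 CPM in ICAM1-high, against 17.9 and 18.6 CPM in ICAM1-low. The pan-leukocyte gene PTPRC and the T cell gene CD3E were at 0. The part of all these markers in the chaperonin results was not tested.

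RefSeq promoter windows (GRCh38.p14, 250 bases before to 50 after an annotated start) were found for 9 of the 10 members, 12 windows in all, and not for CCT6A. They were searched on both strands for the heat shock unit pairs GAANNTTC and TTCNNGAA, for 3 consecutive units (GAANNTTC followed by NNGAA, and its reverse complement), for the E-box CACGTG bound by MYC among others, and for CCCA and ATGC with NN between them, the core of the motif of the factor ZNF143. The 3-unit motif contains both unit pairs. The stretches that hold a match are shown with the matched bases in capitals, each 5′ to 3′ on the strand of its gene.
HSPD1, chr2:197499991-197500090, minus strand, 3 or more heat shock units: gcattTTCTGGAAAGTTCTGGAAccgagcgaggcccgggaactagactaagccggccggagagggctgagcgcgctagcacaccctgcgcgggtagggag
HSPE1 and HSPD1 shared interval, chr2:197500225-197500428, plus strand, E-box: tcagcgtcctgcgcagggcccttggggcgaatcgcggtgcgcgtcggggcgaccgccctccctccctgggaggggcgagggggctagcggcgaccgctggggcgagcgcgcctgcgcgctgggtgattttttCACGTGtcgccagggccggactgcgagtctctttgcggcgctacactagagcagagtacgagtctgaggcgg
TCP1, chr6:159789793-159789852, minus strand, 2 heat shock units: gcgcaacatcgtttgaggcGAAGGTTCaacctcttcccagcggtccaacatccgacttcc
CCT2, chr12:69585769-69585838, plus strand, 2 heat shock units: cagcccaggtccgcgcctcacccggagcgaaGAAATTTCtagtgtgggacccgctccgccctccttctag
CCT4, chr2:61888607-61888666, minus strand, 2 heat shock units: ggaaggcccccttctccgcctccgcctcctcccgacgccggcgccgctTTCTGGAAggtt
CCT7, chr2:73234258-73234357, plus strand, ZNF143 core on the opposite strand: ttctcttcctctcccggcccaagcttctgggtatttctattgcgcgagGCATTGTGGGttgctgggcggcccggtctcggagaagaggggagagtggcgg

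The run in the HSPD1 window spans 18 bases (chromosome 2, 197500068 to 197500085) and holds 4 alternating heat shock units. Its outer base lies 245 bases before the HSPD1 start used for that window and 294 bases before the RefSeq start of HSPE1 on the other strand. A 3-unit match occurred in 59 of 16677 promoter windows of tested genes, 0.35%. A 2-unit match of either kind occurred in 10.55% of those windows and in 4 of the 12 member windows. The E-box was found in 9.22% of all windows and the ZNF143 core in 2.13%. The windows of CCT3, CCT5 and CCT8 held none of these letters. A match is a run of letters, not evidence of binding.

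All 10 chaperonin genes were called between the subsets, 8 higher and 2 lower in ICAM1-high, where a call is an edgeR adjusted p under 0.05. Among all 16250 genes tested 59.7% were called, 30.4% higher and 29.4% lower, so a call by itself was common. The median log2 fold change (ICAM1-high minus ICAM1-low) was 0.26 over the 10 members and 0.01 over all genes tested. With scaling by library size alone, the median of all genes was 0.17 higher and 68.3% of calls were higher in place of 50.8%. No member changed sign under that scaling, but CCT4 was then no longer called. In bulk RNA, fewer cells of a type and less RNA per cell cannot be told apart. The plot of levels by library shows that ICAM1-high and ICAM1-low did not overlap for any of the 10 genes. The share of all genes tested without overlap was not counted, so this does not set the members apart.

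**Figure D1:**
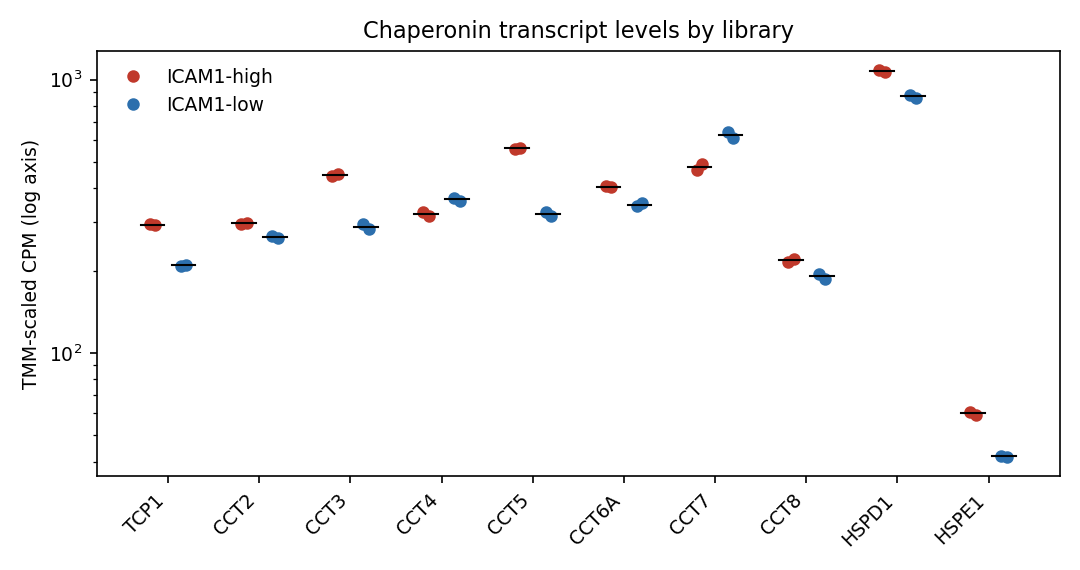
Levels of the 10 chaperonin genes as TMM-scaled CPM on a log axis, with 1 point per library (ICAM1-high left of ICAM1-low, 2 libraries each) and a line at the mean. The ICAM1-high points lie above the ICAM1-low points for 8 genes, and below them for CCT4 and CCT7.

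The ring subunits did not move as a block. CCT5 had the largest rise of the 8, CCT3 and TCP1 followed, and CCT7 and CCT4 fell. CCT5 (epsilon subunit, ENSG00000150753, chromosome 5, 10249921 to 10266412, GRCh38) was at 556 and 564 CPM in ICAM1-high, against 327 and 317 CPM in ICAM1-low. Both ICAM1-high libraries lay far above both ICAM1-low libraries, and the spread within a subset was small beside the gap (SD 5.24 CPM in ICAM1-high, against 7.18 CPM in ICAM1-low, n = 2 each). Its log2 difference was 0.80 (SE 0.04, adjusted p = 5.83e-28), a 1.74-fold difference, and 22.6% of all genes tested had a larger change in either direction. The window of CCT5 held none of the motifs searched.

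CCT3 (gamma subunit, ENSG00000163468, chromosome 1, 156308968 to 156367873) was at 442 and 453 CPM in ICAM1-high, against 296 and 283 CPM in ICAM1-low. The subsets were again well apart, and CCT3 rose by 0.63 on the log2 scale (SE 0.04, adjusted p = 5.01e-22). TCP1 (alpha subunit, the first of the family to be described, ENSG00000120438, chromosome 6, 159778498 to 159789749) was at 296 and 293 CPM in ICAM1-high, against 208 and 209.6 CPM in ICAM1-low. It rose by 0.50 (SE 0.04, adjusted p = 3.83e-16), and the SD over its libraries was 2.66 CPM in ICAM1-high, against 1.01 CPM in ICAM1-low. Exons of TCP1 share 397 bases with those of ACAT2 on the opposite strand, a gene with 578 and 539 counts in ICAM1-high and 393 and 376 counts in ICAM1-low. Since the strand setting is not given, a part of the TCP1 counts could come from ACAT2, which had far fewer.

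CCT6A, CCT8 and CCT2 rose by less. CCT6A (zeta subunit, ENSG00000146731, chromosome 7, 56051630 to 56063989) was at 408 and 404 CPM in ICAM1-high, against 344 and 353 CPM in ICAM1-low, a log2 difference of 0.22 (SE 0.04, adjusted p = 3.21e-06). CCT8 (theta subunit, ENSG00000156261, chromosome 21, 29055805 to 29073797) was at 215 and 221 CPM in ICAM1-high, against 194 and 187 CPM in ICAM1-low, a log2 difference of 0.20 (SE 0.05, adjusted p = 1.71e-04). CCT2 (beta subunit, ENSG00000166226, chromosome 12, 69585334 to 69601570), with a 2-unit match in 1 of its 2 promoter windows, was at 296 and 300 CPM in ICAM1-high, against 268 and 262 CPM in ICAM1-low. It rose by 0.17 (SE 0.04, adjusted p = 5.13e-04). For these 3 genes the ICAM1-high libraries lay above the ICAM1-low ones by small margins, and 70.0%, 73.1% and 76.9% of genes tested changed by more. Without ICAM1-low replicate 2, CCT2 (log2 fold change 0.14, adjusted p = 0.0783) and CCT8 (0.16, adjusted p = 0.0573) were not called.

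CCT7 and CCT4 went the other way. CCT7 (eta subunit, ENSG00000135624, chromosome 2, 73233420 to 73253021), whose window holds the ZNF143 core beside its start site, was at 466 and 491 CPM in ICAM1-high, against 641 and 612 CPM in ICAM1-low. Both ICAM1-high libraries were below both ICAM1-low libraries, and CCT7 fell by 0.39 on the log2 scale (SE 0.04, adjusted p = 1.58e-13). CCT4 (delta subunit, ENSG00000115484, chromosome 2, 61868089 to 61888804) was at 328 and 317 CPM in ICAM1-high, against 370.1 and 361 CPM in ICAM1-low. The fall of CCT4 was small, at -0.18 on the log2 scale (SE 0.04, adjusted p = 1.40e-04), and with scaling by library size alone it was -0.0055 (adjusted p = 0.915). Exons of CCT4 share 81 bases with the opposite-strand gene COMMD1, which had 188 and 194 counts in ICAM1-high and 249 and 233 counts in ICAM1-low.

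**Figure D2:**
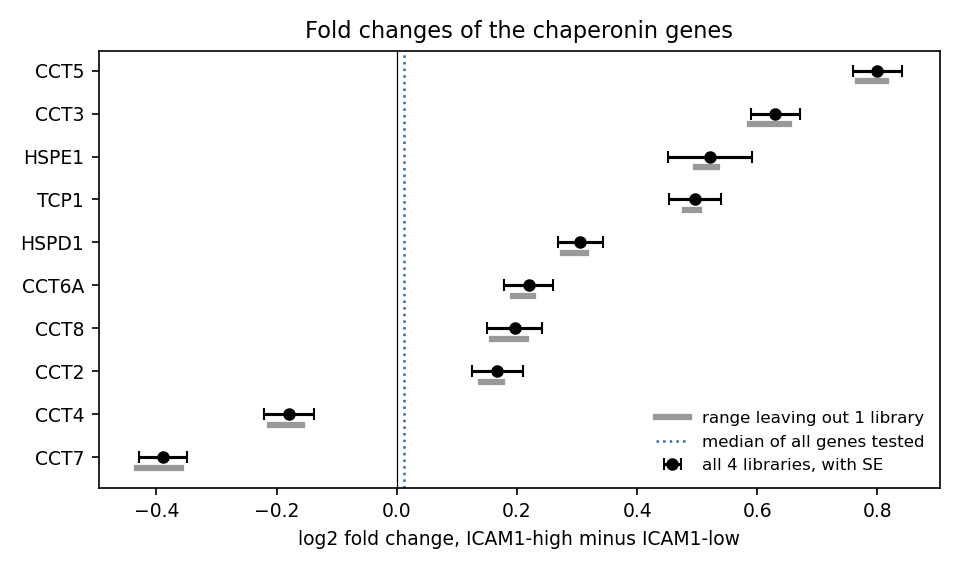
Log2 fold change (ICAM1-high minus ICAM1-low) of each chaperonin gene from all 4 libraries, with its SE as error bar, the range over fits that leave out 1 library as a grey bar, and the median of all genes tested as a dotted line. Values run from -0.39 for CCT7 to 0.80 for CCT5.

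Within the ring the largest contrast was between CCT5 and CCT7. The ratio of CCT5 to CCT7 CPM was 1.19 and 1.15 in the ICAM1-high libraries, against 0.51 and 0.52 in the ICAM1-low libraries. The mean log2 ratio thus differed by 1.19 between the subsets, with no overlap. CCT5 to CCT4 gave 1.69 and 1.78 in ICAM1-high against 0.88 in both ICAM1-low libraries. An exact two-sided permutation test over the 4 libraries gave p = 0.333 for each ratio, the smallest that 2 against 2 libraries allow. These pairs were chosen after the fold changes were seen, so the ratios are descriptions. The ratios are not corrected for transcript length, so only their difference between the subsets can be read.

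Summed over the 8 subunits, CCT transcripts made up 3008 and 3043 CPM in ICAM1-high, against 2649 and 2584 CPM in ICAM1-low, 1.16-fold more in ICAM1-high. Levels of different genes can be compared only per length, here per kb of the longest coding transcript in GENCODE 29. On that scale CCT7 was the highest subunit in every library, at 243 and 256 CPM per kb in ICAM1-high and 335 and 319.5 CPM per kb in ICAM1-low. That transcript has 1916 bases for CCT7 and 3675 for CCT5, whereas their coding parts are near equal, at 1629 and 1623 bases. In ICAM1-high, CCT5 had more CPM (556 and 564) than CCT7 (466 and 491). Which of them was higher per length in ICAM1-high thus depends on the length used. The least abundant was CCT8 in ICAM1-high (107 and 110.3 CPM per kb) and TCP1 in ICAM1-low (83.3 and 83.9 CPM per kb), although with all exons of a gene joined as its length TCP1 was lowest in both subsets. The highest subunit exceeded the lowest 2.26-fold and 2.33-fold in the ICAM1-high libraries and 4.02-fold and 3.81-fold in the ICAM1-low libraries. With joined exons these values were 2.16 and 2.30 in ICAM1-high and 4.23 and 4.01 in ICAM1-low. The 8 mRNA levels were thus closer to one another in ICAM1-high under both lengths.

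As a share of the summed CCT level per kb, CCT7 held 19.4% and 20.2% in ICAM1-high and 29.2% and 28.6% in ICAM1-low. CCT5 held 12.1% in both ICAM1-high libraries and 7.76% and 7.72% in ICAM1-low, and CCT3 held 16.4% and 16.6% in ICAM1-high and 12.0% and 11.8% in ICAM1-low. TCP1 had a larger share in ICAM1-high (9.48% and 9.23%, against 7.27% and 7.52% in ICAM1-low) and CCT4 a smaller one (10.4% and 9.92%, against 12.8% in both ICAM1-low libraries). The mean shares of CCT2 (11.6% in ICAM1-high and 11.5% in ICAM1-low), CCT6A (11.8% in ICAM1-high and 11.3% in ICAM1-low) and CCT8 (8.63% in ICAM1-high and 8.40% in ICAM1-low) differed little. The levels per kb of CCT2 and CCT6A (146 and 149 CPM per kb in ICAM1-high, 130.1 and 128 CPM per kb in ICAM1-low) lie within a few percent, so their order is not resolved.

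**Figure D3:**
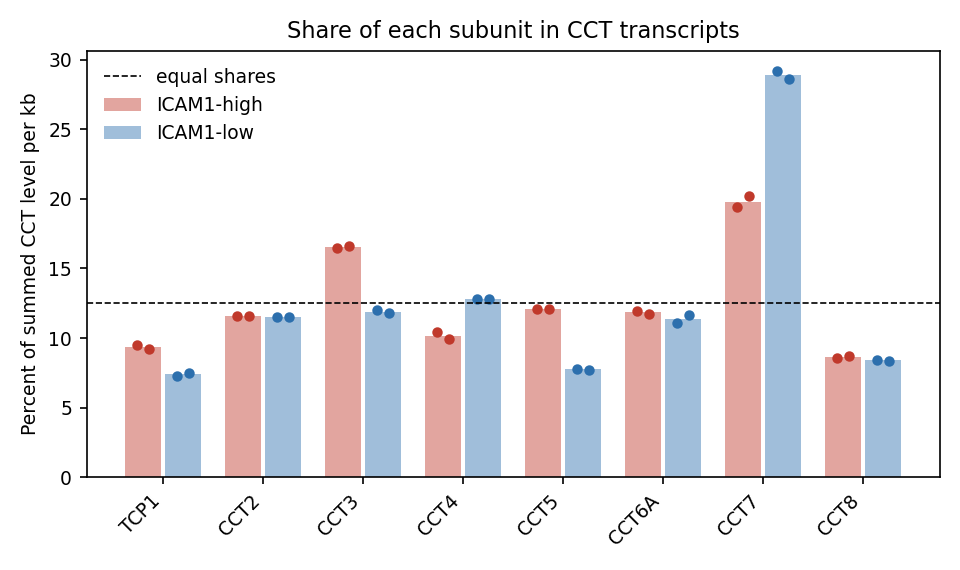
Share of each subunit in the summed level per kb of the 8 CCT genes, in percent, with bars for the subset mean (ICAM1-high left of ICAM1-low), points for the 2 libraries of a subset and a dashed line at equal shares. Per kb of the longest coding transcript, CCT7 stands highest in both subsets, at a mean of 19.8% in ICAM1-high and 28.9% in ICAM1-low.

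Both genes of the mitochondrial chaperonin rose. HSPD1 (ENSG00000144381, chromosome 2, 197486581 to 197516737) was at 1083 and 1064 CPM in ICAM1-high, against 880.1 and 857 CPM in ICAM1-low. Its libraries did not overlap between the subsets, and its log2 fold change was 0.31 (SE 0.04, adjusted p = 1.15e-10). The lid gene HSPE1 (ENSG00000115541, chromosome 2, 197499994 to 197503457) was at 60.7 and 59.4 CPM in ICAM1-high, against 42.1 and 41.6 CPM in ICAM1-low. HSPE1 rose by 0.52 (SE 0.07, adjusted p = 1.51e-09), also without overlap.

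HSPD1 to HSPE1 CPM stood at 17.8 and 17.9 in the ICAM1-high libraries, against 20.9 and 20.6 in the ICAM1-low libraries. The mean log2 ratio was 0.22 lower in ICAM1-high (difference -0.22, exact two-sided permutation p = 0.333, the smallest possible). HSPD1 over the mean of the 8 CCT genes was 2.88 and 2.80 in ICAM1-high and 2.66 and 2.65 in ICAM1-low (difference in mean log2 ratio 0.10, exact two-sided permutation p = 0.333). Neither ratio is corrected for transcript length, so only its difference between the subsets can be read. Per kb, HSPD1 was the highest of the 10 genes and averaged 437 CPM in ICAM1-high, against 354 CPM in ICAM1-low, whereas HSPE1 averaged 63.2 CPM in ICAM1-high, against 44.0 CPM in ICAM1-low, and was the lowest of the 10. The table lists 26 HSPE1 pseudogenes, which together had 14 and 15 counts in ICAM1-high and 17 and 16 in ICAM1-low. How reads shared with such copies were counted is not given, so the level of HSPE1 is uncertain. HSPD1 has 18 pseudogenes in the table, with 197 and 199 counts in ICAM1-high and 144 and 165 in ICAM1-low, at most 1.26% of the counts of HSPD1.

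The divergent pair shares more than its promoter. HSPD1 and HSPE1 overlap over 281 exon bases on opposite strands in GENCODE 29, and their nearest RefSeq starts lie 105 bases apart around the E-box shown above. With no strand setting given, reads in the overlap cannot be assigned to either gene. MOB4, the next gene on the side of HSPE1 and named after its values were seen, had 543 and 484 counts in ICAM1-high and 715 and 697 in ICAM1-low. MOB4 fell by 0.72 (SE 0.08, adjusted p = 6.02e-12), so the genes of this interval did not all move in the same direction. The HSPE1-MOB4 readthrough gene had only 2 and 1 counts in ICAM1-high and 0 and 6 in ICAM1-low.

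Of 5 genes related to the CCT subunits by descent 4 were tested, of which 3 fell, 0 rose and 1 was not called. The share that fell was 75.0%, beside 29.4% of all genes tested, and the median log2 fold change was -0.67. By DESeq2, with scaling by library size alone or without ICAM1-low replicate 1, 2 fell. CCT6B, the testis-type counterpart of CCT6A, was at 1.49 CPM in ICAM1-high, against 2.90 CPM in ICAM1-low (30 and 25 counts against 49 and 41), a fall of 0.96 (SE 0.30, adjusted p = 0.00435). CCT6B was not called without ICAM1-low replicate 1 (adjusted p = 0.0554) or by DESeq2 (0.0601). MKKS, part of the chaperonin-like complex that assembles the ciliary BBSome, was at 39.4 ± 1.84 CPM in ICAM1-high, against 98.5 ± 1.77 CPM in ICAM1-low (SD, n = 2 each), and fell by 1.32 (SE 0.06). Its partner BBS10 fell by 0.37 (SE 0.11, adjusted p = 0.00232; not called with scaling by library size alone), and BBS12 was at -0.31 on the log2 scale (SE 0.21, adjusted p = 0.196). CCT8L2 had 0 counts in all 4 libraries.

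Prefoldin, which hands unfolded actin and tubulin to CCT, was listed with its relatives as 9 genes. Of these 3 rose (33.3%, beside 30.4% of all genes tested), 5 fell (55.6%, beside 29.4%) and 1 was not called, at a median log2 fold change of -0.21. With scaling by library size alone 3 fell, PFDN1 and URI1 no longer being called, and 1 rose by DESeq2. The prefoldin subunit gene PFDN2 was at 51.7 ± 0.043 CPM in ICAM1-high, against 88.8 ± 2.54 CPM in ICAM1-low, and fell by 0.78 (SE 0.06, adjusted p = 7.09e-18). PFDN4 fell by 0.55 and PFDN1 by 0.30, whereas PFDN5, at 81.0 ± 1.75 CPM in ICAM1-high, against 56.8 ± 3.29 CPM in ICAM1-low, rose by 0.51 (SE 0.06, adjusted p = 1.21e-10). Of the prefoldin-like genes, PDRG1 fell by 0.51 and URI1 by 0.21.

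Phosducin-like proteins bind CCT and assist in the folding of its clients. PDCL3 rose by 0.42 (SE 0.10), PDCL by 0.22 (SE 0.09, adjusted p = 0.0297) and TXNDC9 fell by 0.65 (SE 0.08), while PDCL2 had 0 counts. Of the 3 tested, 66.7% rose and 33.3% fell, beside 30.4% and 29.4% of all genes tested. The count of 2 that rose was 1 with any 1 library left out, with no filter, by DESeq2 or at an adjusted p under 0.01. Tubulin cofactors, which take tubulin over from CCT, numbered 5, of which 1 rose, 2 fell and 2 were not called (median -0.23). Beside these 5, 30.4% of all genes tested rose and 29.4% fell, so such calls were common. TBCB fell by 0.44 (SE 0.05) and TBCA by 0.23 (SE 0.06), and TBCD rose by 0.41 (SE 0.06). With scaling by library size alone, TBCA was not called (adjusted p = 0.462).

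Of 22 genes for client proteins of CCT, all tested, 12 rose, 4 fell and 6 were not called. The shares were 54.5% higher and 18.2% lower, beside 30.4% and 29.4% of all genes tested. Their median log2 fold change was 0.24 beside 0.01 over all genes. The beta-tubulin gene TUBB4B was at 411 ± 11.4 CPM in ICAM1-high, against 182 ± 5.38 CPM in ICAM1-low (log2 fold change 1.17, SE 0.04, adjusted p = 2.38e-35). TUBA1B rose by 0.90, TUBB by 0.87 and TUBB6 by 0.94, with SE of 0.04 to 0.06, although reads may be shared with tubulin genes of similar sequence. Among the beta subunits of G proteins, GNB4 rose by 0.97 (SE 0.08) and GNB1 fell by 0.41 (SE 0.04). The actin genes, named after their values were seen, differed: ACTB was at 3278 ± 152 CPM in ICAM1-high, against 2674 ± 24.2 CPM in ICAM1-low (0.29, adjusted p = 3.74e-10), while ACTG1 was at 3483 ± 83.2 CPM in ICAM1-high, against 3617 ± 66.4 CPM in ICAM1-low (-0.05, adjusted p = 0.207), a value that became 0.12 with scaling by library size alone.

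**Figure D4:**
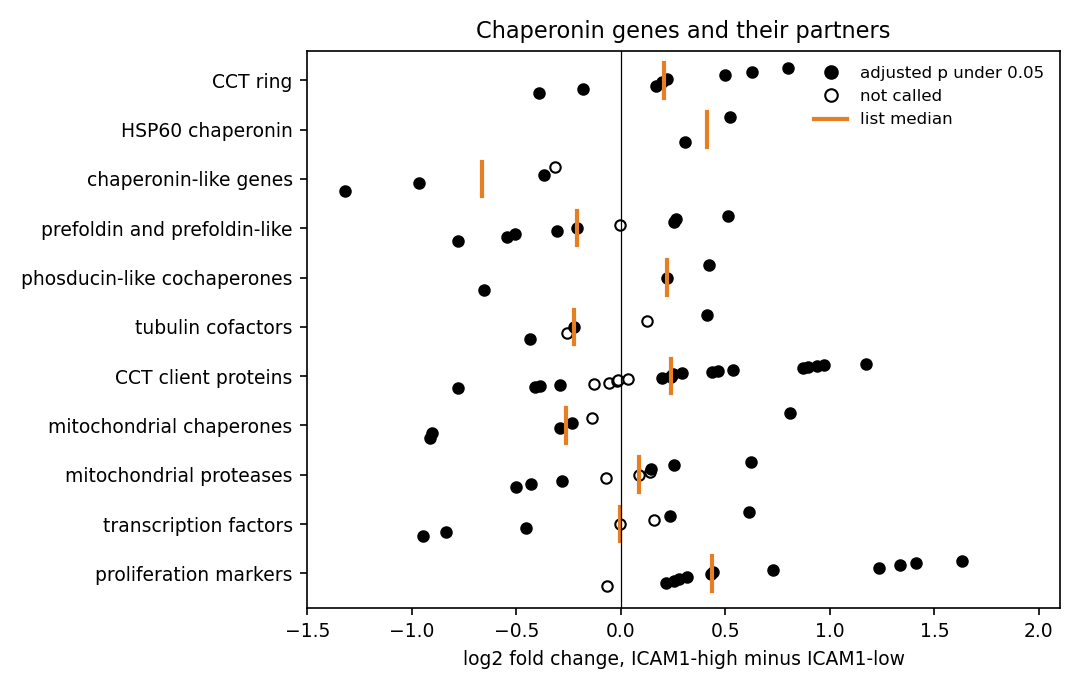
Log2 fold change (ICAM1-high minus ICAM1-low) of each tested gene in the chaperonin and partner lists, with filled points for an adjusted p under 0.05, open points for genes not called and an orange line at the list median. The HSP60 chaperonin pair lies above 0, while 4 of the 6 mitochondrial chaperones tested lie below 0 as filled points.

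Among other mitochondrial chaperones most called genes fell, while HSPD1 and HSPE1 rose. Of 7 listed, 6 were tested, of which 1 rose, 4 fell and 1 was not called, at a median log2 fold change of -0.26. The shares were 16.7% higher and 66.7% lower, beside 30.4% and 29.4% of all genes tested. HSPA9, the mitochondrial HSP70 that draws in and folds imported proteins, was at 679.5 ± 7.62 CPM in ICAM1-high, against 1272 ± 8.73 CPM in ICAM1-low. HSPA9 fell by 0.91 (SE 0.04, adjusted p = 2.31e-32), and its nucleotide exchange factor gene GRPEL2 fell by 0.91 (SE 0.08). TRAP1, the mitochondrial HSP90, fell by 0.29 and the J-protein gene DNAJA3 by 0.23, while the disaggregase gene CLPB rose by 0.81 (SE 0.09). With scaling by library size alone DNAJA3 was not called (-0.06, adjusted p = 0.301). GRPEL1 had a log2 fold change of -0.14 (adjusted p = 0.079), which became 0.04 with that scaling, and DNLZ had too few counts to be tested.

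Of 9 mitochondrial protease genes 3 rose, 3 fell and 3 were not called (median 0.09), shares of 33.3% each way beside 30.4% higher and 29.4% lower over all genes tested. With scaling by library size alone 5 rose, and by DESeq2, with no filter or at an adjusted p under 0.01, 2 rose. LONP1, the main matrix protease, fell by 0.50 (SE 0.05), the inner membrane protease gene YME1L1 by 0.43 and CLPX by 0.28. HTRA2, of the intermembrane space, rose by 0.62 (SE 0.11), SPG7 by 0.26 and AFG3L2 by 0.14 (adjusted p = 0.0405). AFG3L2 was not called by DESeq2 (adjusted p = 0.168), with no filter (adjusted p = 0.14) or at an adjusted p under 0.01. It was also not called without ICAM1-high replicate 1, ICAM1-low replicate 1 or ICAM1-low replicate 2 (log2 fold change 0.11, 0.15 and 0.12). CLPX was not called with scaling by library size alone (adjusted p = 0.089).

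Of 7 transcription factor genes known to act on chaperonin or mitochondrial chaperone genes, 2 rose, 3 fell and 2 were not called (4 rose when scaled by library size alone). The shares were 28.6% higher and 42.9% lower, beside 30.4% and 29.4% of all genes tested. ZNF143 was at 19.98 ± 0.858 CPM in ICAM1-high, against 13.1 ± 0.142 CPM in ICAM1-low, and rose by 0.61 (SE 0.11, adjusted p = 3.20e-06), and MYC rose by 0.23 (SE 0.05). HSF2 fell by 0.45 (SE 0.12), and the stress factor genes CEBPB and DDIT3 fell by 0.84 (SE 0.07) and 0.95 (SE 0.12). ATF5, a factor of the mitochondrial stress response, had a log2 fold change of 0.16 (adjusted p = 0.176, and 0.00382 with scaling by library size alone). HSF1, the main heat shock factor and named after its values were seen, was at 106 ± 11.2 CPM in ICAM1-high, against 106 ± 3.81 CPM in ICAM1-low (-0.0022, adjusted p = 0.978), and its sign changed with the scaling and with the library left out. An mRNA level says nothing of the activity of such a factor.

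Of 12 proliferation markers 11 were higher in ICAM1-high, 0 lower and 1 not called, with a median log2 fold change of 0.44. As shares, 91.7% were higher and 0.0% lower, beside 30.4% and 29.4% of all genes tested. Their sum was 2144 and 2143 CPM in ICAM1-high, against 1568 and 1576 CPM in ICAM1-low. The replicative helicase genes MCM5, MCM2 and MCM6 rose by 1.63, 1.34 and 1.23, while MKI67 rose by 0.32 (SE 0.04). The part of this difference in the chaperonin values was not tested.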

How the data were processed

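RNA was sequenced from 2 ICAM1-high and 2 ICAM1-low libraries. The authors deposited raw counts per gene as whole numbers in 1 table. FastQC 0.10.1 and the build GRCh38 are named, per the submitters' processing notes. For the aligner, counting program, strand setting and treatment of multiply matching reads the entry is "not given in the sources used here". Near-identical and overlapping genes are therefore uncertain. Of 58735 identifiers, 58207 had a symbol, and positions and lengths are from GENCODE 29.

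Genes were compared with the robust quasi-likelihood test of edgeR 4.0.16 (R 4.3.3), with TMM scaling and the default expression filter (minimum count 10, minimum total 15). P-values were adjusted by Benjamini-Hochberg over all 16250 genes tested. The SE is the log2 fold change divided by the square root of the F statistic. Totals of 16272591 to 17638647 counts put 3 counts at 0.161 to 0.196 CPM. The procedure was tested on simulated data drawn from these libraries.

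Whether the 2 libraries of a subset are separate cultures is not stated in the labels. P-values therefore reflect only how far these libraries differ, and that may be technical. Libraries of a subset differed by more than sampling noise (chi-square per degree of freedom 3.07 in ICAM1-high and 1.84 in ICAM1-low). Members and lists were chosen with earlier results of these data known. Named genes were the members, their copies, the label checks, up to 6 genes of each partner list with the smallest adjusted p, and the 5 genes nearest to the CCT profile. Alternatives were other scaling, filters and tests (DESeq2 1.42.0, limma-voom with limma 3.58.1), a block for the replicate number, omission of mitochondrially encoded and ribosomal protein genes, an adjusted p under 0.01, addition of pseudogene or readthrough counts, and omission of each library.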

Additional observations from a re-analysis of the deposited data

How the results depend on the processing

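The 10 members' fold changes and calls were taken 133 times over all alternatives. An adjusted p under 0.01 keeps the main fold change, for other named genes too, so it can alter calls but no sign. In 130 of the 133 the direction and call were kept, in 3 the call was lost, and 0 changed sign. The 3 were CCT4 with scaling by library size alone (-0.0055) and CCT2 and CCT8 without ICAM1-low replicate 2. Leaving out each library in turn gave 0.14 to 0.18 for CCT2 and 0.16 to 0.22 for CCT8, and the cause was not tested. With scaling by library size alone, 3124 genes in place of 4771 were lower. That scaling left 1 member lower, with 3 prefoldin genes and 1 tubulin cofactor lower, 5 mitochondrial proteases higher and 4 transcription factors higher. DESeq2 gave 1 prefoldin gene higher. The count of phosducin-like genes higher was 1 by DESeq2, with no filter, at an adjusted p under 0.01 and without each single library (1 to 1). Adding counts of CCT6P or HSPD1P pseudogenes or of HSPE1-MOB4 to their member changed no call. The ranks of the members per kb moved in 9 of 20 cases with joined exons, by up to 4 places. Same-numbered libraries deviated with a correlation of 0.042. Deviations over single genes are partly counting noise, so this cannot show whether the numbers pair the libraries, and the labels do not say. With the replicate block, 4976 genes were higher and 4836 lower, and no member's call changed. Of 754 values of 58 other named genes, 713 kept direction and call. Signs changed for ACTG1 (0.12) and GRPEL1 (0.037) with scaling by library size alone. HSF1 was at 0.17 with that scaling, at 0.01 with a mean of at least 1 CPM as filter, and between -0.117 and 0.095 with each library left out. With 2 libraries a subset, no exact test can reach p = 0.05.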

Other observations

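Among 4404 other genes averaging 50 CPM or more, those nearest to the mean profile of the 8 CCT genes were PCYOX1, EXOSC10, ATP5MC1, COPS6 and HSPG2. Likeness was the Euclidean distance of log2 CPM, centred per gene over the 4 libraries, and was 0.0115 for PCYOX1 and 0.0209 for HSPG2. CCT8, CCT6A and CCT2 themselves were 0.0528, 0.0559 and 0.0751 from that mean, and CCT5 and CCT7 were 0.557 and 0.635 from it. The mitochondrial HSPD1 was at 0.0686, closer to the CCT mean than 6 of the 8 CCT genes were. PCYOX1 to HSPG2 were all closer still, and how many of the 4404 genes lay within 0.0686 was not counted. This likeness is therefore no sign of a link between the machines.

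Pseudogene copies of the ring subunits were counted at low levels. CCT6P1 had 147 and 124 counts in ICAM1-high and 85 and 81 in ICAM1-low (log2 fold change 0.45, SE 0.18, adjusted p = 0.0275), which was not called without ICAM1-high replicate 1 (adjusted p = 0.22), without either ICAM1-low library or by DESeq2. CCT6P3 had 44 and 48 counts in ICAM1-high and 37 and 33 in ICAM1-low (0.14, adjusted p = 0.699), and CCT8P1 had 70 and 58 counts in ICAM1-high and 28 and 47 in ICAM1-low (0.51, adjusted p = 0.0924). The gene ENSG00000271980, which shares 1757 exon bases with CCT5 on the opposite strand, had 3 and 1 counts in ICAM1-high and 0 in both ICAM1-low libraries.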
